A study of Macaca mulatta with 8 samples.

Results

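The first step of the neural differentiation series, from rhesus monkey embryonic stem cells (ESCs) to neural rosettes at passage 1 (R-NSCP1), was described from mRNA. The comparison used 2 of the 8 libraries of the series, the R-NSCP1 and the ESC mRNA library, and took every row of the deposited expression table. R-NSCP1 was rosettes picked by hand from the outgrowths of embryoid bodies and grown in N2 medium with SHH (200 ng/ml), FGF8 (100 ng/ml), BDNF (20 ng/ml) and ascorbic acid, where SHH is a ventralising morphogen, FGF8 a midbrain and forebrain organiser signal and BDNF a neurotrophin. ESC was the IVF3.2 line, a Macaca mulatta line of an in vitro fertilised embryo, kept on mouse embryonic fibroblast feeders, from which R-NSCP1 was derived. The other mRNA libraries were R-NSCP6 (passage 6) and NPC (neural progenitors after long expansion with FGF2 and EGF). They are given where their levels place an R-NSCP1 value. R-NSCP6 differed from R-NSCP1 by more than passage. Its medium held more SHH and the Notch ligands DLL4 and JAG1, and FGF8 was not listed for it. All cells of the dish were collected for R-NSCP6, since rosettes no longer formed. Which of these accounts for a difference between R-NSCP1 and R-NSCP6 was not tested. Each stage had 1 library of pooled cells, from 1 line, so no value below has a replicate error and no test of the difference was possible.

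Levels are FPKM, fragments scaled by transcript length and by the mapped fragments of the library, as deposited. The table held 12613 rows and 12460 symbols, of which 128 had more than 1 row and were taken at the row of highest mean. The paper called a gene expressed from 3 FPKM. It found a number of genes expressed in at least 1 stage that is close to this number of symbols. Genes under 3 FPKM in all 4 mRNA libraries therefore appear to have no row. Counts below are of listed genes only, so part of a count can come from which genes have a row. The log2 ratio is that of FPKM + 1, R-NSCP1 over ESC, which understates the change of genes under a few FPKM. A gene is called higher or lower in R-NSCP1 from a log2 ratio of 1 or -1, a fixed 2-fold rule that compares these libraries and not the conditions. In bulk RNA, fewer cells of a type and less RNA per cell cannot be told apart.

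Rosettes are rings of neuroepithelial cells around a small lumen, the culture counterpart of the early neural tube. Pluripotent cells are held by a network of transcription factors together with Nodal and FGF signals, and neural induction needs Nodal and BMP signalling to be low. The neural plate that follows is patterned along its axes by Wnt, FGF, retinoic acid, BMP and Hedgehog signals, and Notch signalling keeps its cells dividing as progenitors.

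The libraries differed in their summed FPKM, 491243 in R-NSCP1 against 999473 in ESC, while the upper quartiles were 24.3 FPKM in R-NSCP1 and 26.9 FPKM in ESC. LOC100426412, a symbol with no gene name, held 3.99% of the sum in R-NSCP1 and 20.6% in ESC. The median log2 ratio over all symbols was 0.05 with FPKM as deposited. It shifted by 0.13 after upper-quartile scaling, by -0.05 after median-of-ratios scaling and by 0.93 after division by the library sum, so ratios of under 1 in size depend on the scaling. The number of reads behind a value is unknown, since FPKM estimated over transcript models keep no read counts. The ESC column also stood apart in another way. In ESC, 58 symbols were at 20 FPKM or more while all 3 other libraries were under 1 FPKM, and counted the same way R-NSCP1 had 4 such symbols, R-NSCP6 12 and NPC 15. Those 58 held pluripotency genes but also genes that nearly every cell uses, such as COX5A of the respiratory chain, listed at 0 in R-NSCP1 and at 943 FPKM in ESC, and PABPC1, the main poly(A)-binding protein, with 0.327 FPKM in R-NSCP1 against 323 FPKM in ESC. All 128 repeated symbols had unlike values between their rows in ESC and one value across their rows in each other library. The row of highest mean was thus always their row of highest ESC level. This choice gives each repeated symbol its lowest log2 ratio and can add to the 58. PABPC1, NDUFS5, UQCRH, ATP5G1, IFITM3, CCHCR1 and LDHB are among the repeated symbols, so their falls are the largest that their rows allow. Whether the ESC column was made with other transcript models was not tested. Both labels fitted their defining markers. The 7 rosette markers, PAX6, SOX1, ZBTB16, DACH1, NES, CDH2 and EMX2, summed to 779 FPKM in R-NSCP1 and 160.2 FPKM in ESC, and each was at least 2-fold higher in R-NSCP1. The 6 ESC markers, POU5F1, NANOG, ZFP42, L1TD1, DPPA4 and LIN28A, summed to 105 FPKM in R-NSCP1 and 3184 FPKM in ESC, and each was at least 2-fold lower in R-NSCP1. All ESC markers but LIN28A reached 3 FPKM in ESC alone and appear to be listed only through it. Among the rosette markers, SOX1 and ZBTB16 reached 3 FPKM in R-NSCP1 alone. The direction of these markers partly follows from the listing.

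Of the 12460 symbols, 2149 (17.2%) lay at least 2-fold above their ESC level in R-NSCP1, 1550 (12.4%) lay at least 2-fold below it, and 8761 lay within 2-fold. The 17.2% and 12.4% are the background for each list and family count below, also where they are not repeated. With FPKM divided by the library sum the shares were 48.9% higher and 4.46% lower. At a log2 ratio of 4, 78 symbols were higher and 115 were lower in R-NSCP1. At least 3 FPKM was reached by 9070 symbols in both libraries, by 1581 in R-NSCP1 alone and by 697 in ESC alone. The middle of the distribution was narrow, with the 25th and 75th percentiles of the log2 ratio at -0.52 and 0.69.

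**Figure D1:**
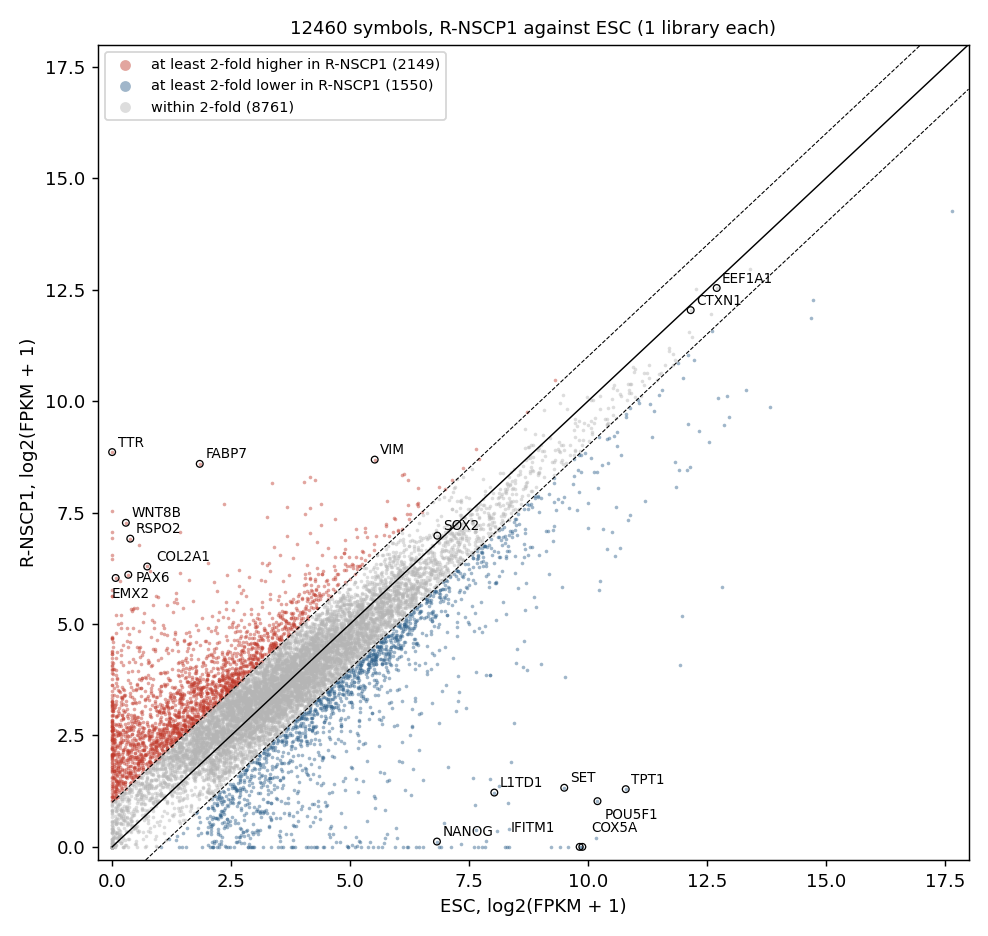
Each point is one of 12460 symbols, with log2(FPKM + 1) in ESC on the x axis and in R-NSCP1 on the y axis; the solid line marks equal levels and the dashed lines 2-fold. Symbols at least 2-fold higher in R-NSCP1 (2149, red) crowd at low ESC levels, while TPT1, POU5F1, SET and COX5A lie near the floor of R-NSCP1.

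The ratio depended on the level of a gene. Ranked by mean FPKM of the 2 libraries and cut into 10 equal groups, the lowest group had a median log2 ratio of 0.55 with 30.2% of symbols at least 2-fold higher and 5.86% lower in R-NSCP1. The highest group had a median of -0.59 with 5.22% higher and 28.6% lower, and the ninth group had 8.43% higher and 18.6% lower. The share of the level group to which a gene belongs, and not the share of all symbols alone, is therefore the background for a count of weak or of abundant genes. The lowest groups also hold symbols under 3 FPKM in both libraries, 1112 in all, which appear to be listed through R-NSCP6 or NPC. No other ESC library could list weak ESC genes, so the shares of the lowest groups can partly come from the listing.

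**Figure D2:**
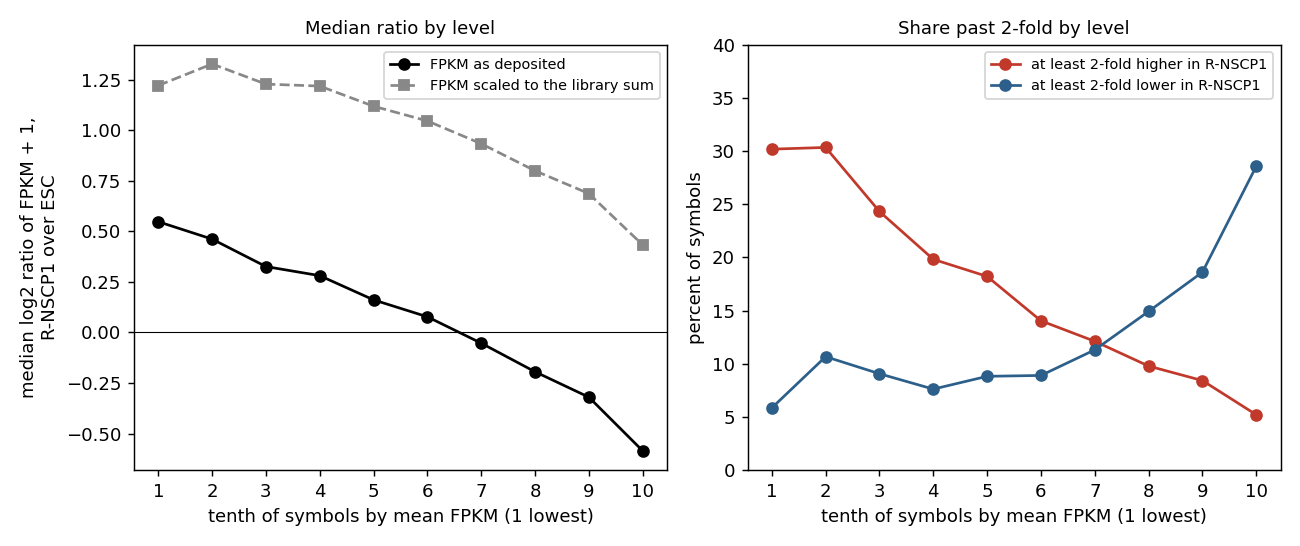
Left, median log2 ratio of FPKM + 1 (R-NSCP1 over ESC) in 10 equal groups of symbols ranked by mean FPKM, as deposited and after division by the library sum; right, percent of symbols at least 2-fold higher (red) or lower (blue) in R-NSCP1. The median falls from 0.55 in the lowest group to -0.59 in the highest.

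The genes farthest above their ESC level coded for secreted Wnt-pathway proteins and for transcription factors of the forebrain and dorsal neural tube. WNT8B, a Wnt ligand of the cortical hem and dorsal forebrain, stood at 154 FPKM in R-NSCP1 against 0.221 FPKM in ESC (log2 ratio 6.98), the largest ratio among named genes above 0 in both libraries. FABP7, the brain fatty acid binding protein of radial glia, had 385 FPKM in R-NSCP1 against 2.58 FPKM in ESC (6.75). All listed R-spondins, secreted amplifiers of Wnt signalling, were in the first 10: RSPO2 with 119.7 FPKM in R-NSCP1 against 0.303 FPKM in ESC (6.53), RSPO1 with 108 FPKM in R-NSCP1 against 0.474 FPKM in ESC (6.21) and RSPO3 with 72 FPKM in R-NSCP1 against 0.727 FPKM in ESC (5.40). In R-NSCP6 they were at 91.3 FPKM (RSPO1), 289.9 FPKM (RSPO2) and 281 FPKM (RSPO3), and all were under 1 FPKM in NPC. The homeobox genes EMX2 of the dorsal telencephalon (64.5 FPKM in R-NSCP1 against 0.0525 FPKM in ESC), PAX6 of neuroectoderm and eye (67.8 FPKM in R-NSCP1 against 0.265 FPKM in ESC), LOC694175, described in the table as an OTX1-like homeobox gene (35.6 FPKM in R-NSCP1 against 0.137 FPKM in ESC), and LHX2 of cortex and eye (38.4 FPKM in R-NSCP1 against 0.339 FPKM in ESC) were each under 1 FPKM in ESC and above 30 FPKM in R-NSCP1. The other members of this set were the orphan nuclear receptors NR2F1 (61.9 FPKM in R-NSCP1 against 0.116 FPKM in ESC) and NR2F2 (39.99 FPKM in R-NSCP1 against 0.37 FPKM in ESC), the zinc finger factors ZIC1 (132 FPKM in R-NSCP1 against 1.7 FPKM in ESC) and ZIC4 (39.2 FPKM in R-NSCP1 against 0.308 FPKM in ESC), the fibrillar collagen gene COL2A1 (77.3 FPKM in R-NSCP1 against 0.667 FPKM in ESC) and TPBG, a membrane glycoprotein that inhibits Wnt signalling (206 FPKM in R-NSCP1 against 4.07 FPKM in ESC). Those 15 genes had a log2 ratio between 4.88 and 6.98.

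Among named genes above 0 in both libraries, with 1 row and at least 20 FPKM in the higher one, the 15 farthest below their ESC level mixed pluripotency genes with genes of general cell function. POU5F1, the central pluripotency factor OCT4, had 1.04 FPKM in R-NSCP1 against 1176 FPKM in ESC (-9.18). NANOG, its partner in that network, had 0.086 FPKM in R-NSCP1 against 113 FPKM in ESC. L1TD1 and DPPA4, both known from pluripotent cells, followed, L1TD1 with 1.33 FPKM in R-NSCP1 against 261 FPKM in ESC and DPPA4 with 0.303 FPKM in R-NSCP1 against 199 FPKM in ESC. TDGF1 (CRIPTO), the Nodal co-receptor, had 0.907 FPKM in R-NSCP1 against 197 FPKM in ESC. CER1, a secreted Nodal and BMP antagonist of anterior endoderm, had 0.286 FPKM in R-NSCP1 against 270.1 FPKM in ESC (-7.72). SPP1 (osteopontin) was at 1.59 FPKM in R-NSCP1 against 278 FPKM in ESC and the chemokine gene CCL20 at 1.92 FPKM in R-NSCP1 against 191 FPKM in ESC. PMAIP1, which codes for the pro-apoptotic protein NOXA, had 35.2 FPKM in R-NSCP1 against 4059 FPKM in ESC, with 362 FPKM in R-NSCP6 and 1068 FPKM in NPC. The remaining genes of the 15 are used by most cells. TPT1, the translationally controlled tumour protein, had 1.45 FPKM in R-NSCP1 against 1777 FPKM in ESC, and SET, a histone chaperone and phosphatase inhibitor, 1.51 FPKM in R-NSCP1 against 725 FPKM in ESC. The pyruvate kinase gene PKM2 had 2.76 FPKM in R-NSCP1 against 335 FPKM in ESC, the formaldehyde-oxidising enzyme gene ADH5 1.88 FPKM in R-NSCP1 against 245 FPKM in ESC and the tautomerase gene DDT 0.103 FPKM in R-NSCP1 against 232 FPKM in ESC. TRIAP1, a regulator of mitochondrial lipid transfer, was under 0.001 FPKM in R-NSCP1 and at 313 FPKM in ESC. TPT1, SET, PKM2, ADH5 and DDT were also under 3 FPKM in R-NSCP6 and NPC. A further symbol, LOC702001, described as like the TPT1 protein, held 22.6 FPKM in R-NSCP1 against 20.8 FPKM in ESC, and LOC699053, described as like ferritin heavy chain, held 45.4 FPKM in R-NSCP1 against 60.3 FPKM in ESC where FTH1 itself had 0.0107 FPKM in R-NSCP1 against 29.8 FPKM in ESC. Whether reads of these genes went to near-identical copies was not tested.

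**Figure D3:**
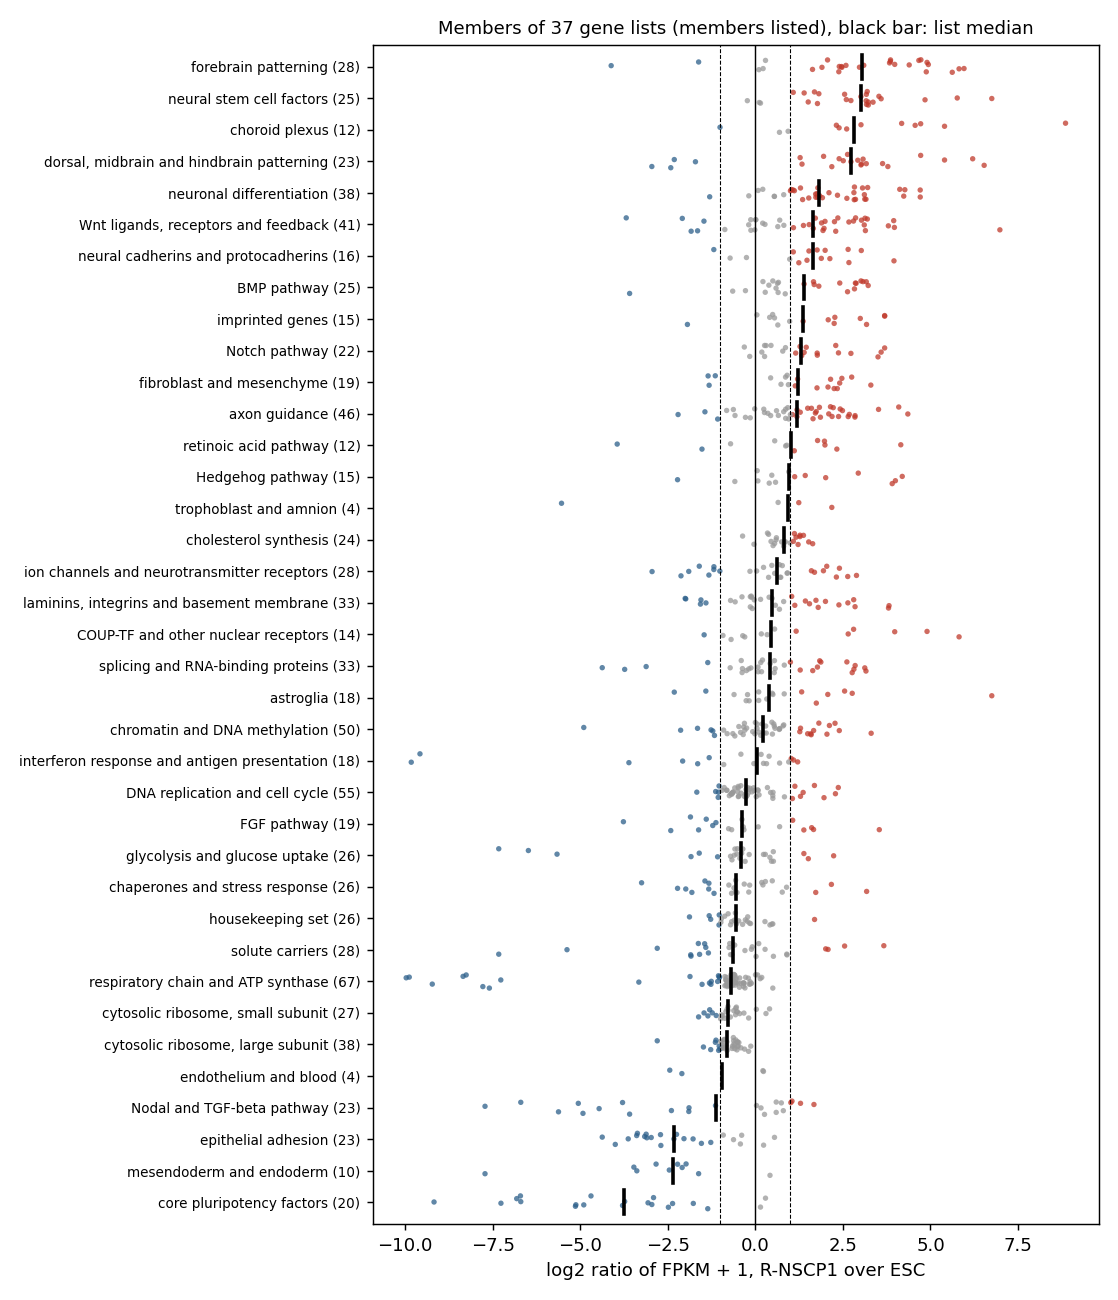
Log2 ratio of FPKM + 1, R-NSCP1 over ESC, of each listed member of 37 gene lists (number listed in brackets), red at least 2-fold higher, blue at least 2-fold lower and grey within 2-fold, with the list median as a black bar. Forebrain patterning lies highest at a median of 3.03 and core pluripotency factors lowest at -3.76.

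Of the pluripotency list, 20 members had a row, none was 2-fold or more higher in R-NSCP1, where 17.2% of all symbols were, and 18 were at least 2-fold lower, where 12.4% of all symbols were. The median log2 ratio was -3.76 against 0.05 over all symbols. Only these 20 of 26 genes of the list had a row. POU5F1, NANOG, L1TD1, DPPA4, TDGF1, ZFP42 and PRDM14 reached 3 FPKM in ESC alone and appear to be listed only through it. The count of lower members therefore partly follows from the listing. Their summed level was 364 FPKM in R-NSCP1 against 4677 FPKM in ESC. Some members were far below their ESC level and yet well above 0. LIN28A, which blocks let-7 microRNA maturation, had 101 FPKM in R-NSCP1 against 1357 FPKM in ESC, and its paralogue LIN28B had 25.5 FPKM in R-NSCP1 against 67.1 FPKM in ESC. In R-NSCP6, LIN28A was at 0.452 FPKM and LIN28B at 2.83 FPKM. SALL4, a zinc finger partner of OCT4, had 19.8 FPKM in R-NSCP1 against 70.1 FPKM in ESC, and the telomere protein gene TERF1 had 36.2 FPKM in R-NSCP1 against 309.8 FPKM in ESC. TRIM71, a let-7 target of early embryos, was at 5.57 FPKM in R-NSCP1 against 35.7 FPKM in ESC. Others were near 0: ZFP42 (REX1) had 1.24 FPKM in R-NSCP1 against 77.3 FPKM in ESC, the germline and pluripotency regulator PRDM14 0.0745 FPKM in R-NSCP1 against 26.8 FPKM in ESC, and VRTN (C7H14orf115) 0.0106 FPKM in R-NSCP1 against 34.6 FPKM in ESC. GDF3 and DPPA2 were listed at 0 in R-NSCP1, with 12.9 and 6.5 FPKM in ESC. SOX2, which both pluripotent cells and neural progenitors need, was within 2-fold with 125 FPKM in R-NSCP1 against 113 FPKM in ESC. DNMT3B, the de novo DNA methyltransferase of the epiblast, had 16.3 FPKM in R-NSCP1 against 515 FPKM in ESC (-4.90).

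NODAL, its co-receptor and its feedback inhibitors were low in R-NSCP1, while the receptors and the transducing SMADs listed were not. NODAL itself had 0.102 FPKM in R-NSCP1 against 35.7 FPKM in ESC. Its antagonist LEFTY1 had 0.0689 FPKM in R-NSCP1 against 51.6 FPKM in ESC and LEFTY2 0.158 FPKM in R-NSCP1 against 34.1 FPKM in ESC. FOXH1, the factor that carries SMAD2 to Nodal targets, had 0.352 FPKM in R-NSCP1 against 28.8 FPKM in ESC. The inhibitory SMAD7 was at 5.09 FPKM in R-NSCP1 against 31.1 FPKM in ESC and the activin antagonist FST at 5.54 FPKM in R-NSCP1 against 77.7 FPKM in ESC. In the signal-transducing part, ACVR1B stood at 12.6 FPKM in R-NSCP1 against 11.2 FPKM in ESC, ACVR2B at 14.3 FPKM in R-NSCP1 against 11.7 FPKM in ESC, SMAD2 at 23.9 FPKM in R-NSCP1 against 23.3 FPKM in ESC and SMAD4 at 26.5 FPKM in R-NSCP1 against 15.4 FPKM in ESC, all within 2-fold. The members at least 2-fold higher were SMAD3 (18.5 FPKM in R-NSCP1 against 5.12 FPKM in ESC), TGFB2 (2.69 FPKM in R-NSCP1 against 0.508 FPKM in ESC), TGFBR1 (60.5 FPKM in R-NSCP1 against 28.8 FPKM in ESC) and GDF1 (6.55 FPKM in R-NSCP1 against 2.74 FPKM in ESC). In all, 4 of 23 members were at least 2-fold higher and 12 lower (17.4% and 52.2%), where 17.2% and 12.4% of all symbols were. NODAL, LEFTY1, LEFTY2 and FOXH1 reached 3 FPKM in ESC alone and appear to be listed only through it. The count of lower members therefore partly follows from the listing. Genes of mesendoderm, the germ layer precursor that Nodal induces, and of endoderm were at least 2-fold lower in 9 of 10 cases, with a median log2 ratio of -2.34. Only these 10 of 21 genes of the list had a row. CER1, GSC, MIXL1, HHEX, SOX17, FOXA2, GATA4 and GATA6 reached 3 FPKM in ESC alone and appear to be listed only through it. This count therefore largely follows from the listing. GSC of the organiser had 0.394 FPKM in R-NSCP1 against 13.6 FPKM in ESC, MIXL1 of the primitive streak 0.218 FPKM in R-NSCP1 against 12.5 FPKM in ESC, HHEX of anterior endoderm 0.372 FPKM in R-NSCP1 against 8.79 FPKM in ESC and the endoderm factor SOX17 0.0834 FPKM in R-NSCP1 against 3.27 FPKM in ESC. The exception was the chemokine receptor gene CXCR4, also used by neural progenitors, with 27.3 FPKM in R-NSCP1 against 20.2 FPKM in ESC. EOMES, used by mesendoderm and again by cortical intermediate progenitors, had 6.25 FPKM in R-NSCP1 against 21.3 FPKM in ESC, and 40.03 FPKM in R-NSCP6.

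Epithelial adhesion genes were lower and neural cadherins higher in R-NSCP1. Of 23 epithelial junction, keratin and splicing genes, 17 (73.9%) were at least 2-fold lower in R-NSCP1, against 12.4% of all symbols. None was higher, and the median log2 ratio was -2.33. E-cadherin, CDH1, had 1.41 FPKM in R-NSCP1 against 28.8 FPKM in ESC, and the epithelial adhesion molecule EPCAM 8.69 FPKM in R-NSCP1 against 154 FPKM in ESC. The splicing factors that set epithelial isoforms stood at 1.2 FPKM in R-NSCP1 against 44.6 FPKM in ESC for ESRP1 and 0.81 FPKM in R-NSCP1 against 14.7 FPKM in ESC for ESRP2, and GRHL2, a master factor of epithelia, 0.627 FPKM in R-NSCP1 against 12.9 FPKM in ESC. CLDN6, the claudin of pluripotent cells, had 33.3 FPKM in R-NSCP1 against 268 FPKM in ESC. The tight junction scaffold gene TJP1 (19.99 FPKM in R-NSCP1 against 31.3 FPKM in ESC), which neuroepithelium also uses, was within 2-fold. N-cadherin, CDH2, the cadherin of neuroepithelium, stood at 299 FPKM in R-NSCP1 against 18.3 FPKM in ESC (3.96). It led a list in which 12 of 16 members were at least 2-fold higher, with CDH11 at 53.6 FPKM in R-NSCP1 against 5.71 FPKM in ESC, CDH20 at 10.2 FPKM in R-NSCP1 against 0.764 FPKM in ESC, CDH4 at 6.38 FPKM in R-NSCP1 against 0.176 FPKM in ESC and NCAM1 at 31.2 FPKM in R-NSCP1 against 6.38 FPKM in ESC. ALCAM was the member lower in R-NSCP1, with 5.33 FPKM in R-NSCP1 against 13.4 FPKM in ESC. Over every symbol named as a cadherin, 6 of 9 were at least 2-fold higher and 1, CDH1, was lower. Of the claudins, 4 of 8 were at least 2-fold lower, and CLDN1, with 32.2 FPKM in R-NSCP1 against 0.833 FPKM in ESC, was higher.

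Neural stem cell genes had the largest share of higher members among the 37 lists. Of 25 listed members, 22 (88%) were 2-fold or more higher in R-NSCP1, against 17.2% of all symbols. None was lower, and the median log2 ratio was 3.01. After FABP7 and PAX6, the largest were DACH1, a nuclear factor of rosettes (31.5 FPKM in R-NSCP1 against 0.13 FPKM in ESC), HES6 (25.9 FPKM in R-NSCP1 against 1.23 FPKM in ESC), SOX9, a factor of radial glia and neural crest (20.7 FPKM in R-NSCP1 against 0.879 FPKM in ESC), and the rosette marker ZBTB16, also called PLZF (10.9 FPKM in R-NSCP1 against 0.162 FPKM in ESC). The SoxB1 gene SOX3 had 30.6 FPKM in R-NSCP1 against 2.38 FPKM in ESC, and its relative SOX1, an early neural plate marker, was at 5.05 FPKM in R-NSCP1 and listed at 0 in ESC. The intermediate filament genes differed in size of change: VIM had 412 FPKM in R-NSCP1 against 44.9 FPKM in ESC, while NES (nestin), often used as the neural stem cell marker, had 300.2 FPKM in R-NSCP1 against 141 FPKM in ESC. SOX4 (68.8 FPKM in R-NSCP1 against 63.6 FPKM in ESC) and PROM1 (17.9 FPKM in R-NSCP1 against 21.2 FPKM in ESC) were within 2-fold, as was SOX2. Over all 13 SOX symbols, 8 were at least 2-fold higher and 1, SOX17, was lower. ZBTB16 and PRTG, a receptor of the early neural tube (19.99 FPKM in R-NSCP1 against 1.6 FPKM in ESC), were lower again at passage 6, ZBTB16 at 1.76 FPKM and PRTG at 3.38 FPKM in R-NSCP6.

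Transcription factors that mark the forebrain were at least 2-fold higher in 23 of 28 listed cases (82.1%), against 17.2% of all symbols. Their median log2 ratio was 3.03. The cortical progenitor factors of the DMRT family stood together: DMRTA1 at 26.9 FPKM in R-NSCP1 against 0.0528 FPKM in ESC, DMRT3 at 13.7 FPKM in R-NSCP1 against 0.0168 FPKM in ESC, and DMRTA2 at 24.4 FPKM in R-NSCP1 and listed at 0 in ESC. FEZF2, which specifies deep-layer cortical neurons, had 31.9 FPKM in R-NSCP1 against 0.565 FPKM in ESC, and NR2E1 (TLX), needed for neural stem cell self-renewal, had 14.9 FPKM in R-NSCP1 against 0.0106 FPKM in ESC. SIX3, an anterior forebrain and eye factor, had 11.2 FPKM in R-NSCP1 against 1.03 FPKM in ESC. The factors of committed cortical cells had smaller levels: NEUROG2 at 7.87 FPKM in R-NSCP1 against 0.037 FPKM in ESC, TBR1 at 8.16 FPKM in R-NSCP1 against 0.166 FPKM in ESC, and EMX1 and NEUROG1 at 4.5 and 2.74 FPKM in R-NSCP1 with both listed at 0 in ESC. Their levels in R-NSCP6 were 25.3 FPKM for NEUROG2, 41.9 FPKM for TBR1 and 29.4 FPKM for EMX1. DLX1, a factor of the ventral telencephalon, was at 4.36 FPKM in R-NSCP1 against 0.0269 FPKM in ESC. HESX1, an anterior factor also present in pluripotent cells, had 0.392 FPKM in R-NSCP1 against 23.2 FPKM in ESC, and ZIC2 (85.6 FPKM in R-NSCP1 against 79.8 FPKM in ESC) and ZIC5 (18.7 FPKM in R-NSCP1 against 15.9 FPKM in ESC) were within 2-fold while ZIC1 and ZIC4, which are neighbours in the genome, were at least 4-fold higher.

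Genes of the dorsal neural tube, midbrain and hindbrain were present at the same stage. Of 23 listed, 19 were 2-fold or more higher in R-NSCP1 and 4 lower (82.6% and 17.4%, median 2.73). Over all symbols 17.2% were higher and 12.4% lower. Only these 23 of 38 genes of the list had a row. LMX1A, of the roof plate, cortical hem and midbrain floor plate, had 28.9 FPKM in R-NSCP1 against 0.133 FPKM in ESC. The roof plate genes MSX1 (7.24 FPKM in R-NSCP1 against 0.0185 FPKM in ESC), MSX2 (9.62 FPKM in R-NSCP1 against 0.182 FPKM in ESC) and GDF7 (6.29 FPKM in R-NSCP1 against 0.176 FPKM in ESC) were higher as well. PAX3 (13.5 FPKM in R-NSCP1 against 0.0558 FPKM in ESC) and PAX7, at 5.63 FPKM in R-NSCP1 and listed at 0 in ESC, mark the dorsal tube and neural crest. EN2, a homeobox gene of the isthmus between midbrain and hindbrain, stood at 11.4 FPKM in R-NSCP1 and was listed at 0 in ESC. WNT1, secreted at the isthmus, had 7.33 FPKM in R-NSCP1 against 0.0187 FPKM in ESC, and PAX8, of the same region, 4.32 FPKM in R-NSCP1 against 0.013 FPKM in ESC. GBX2, of the anterior hindbrain, had 5.25 FPKM in R-NSCP1 against 1.58 FPKM in ESC. The rows lower in R-NSCP1 were FOXD3, shared by neural crest and pluripotent cells (0.698 FPKM in R-NSCP1 against 12.2 FPKM in ESC), FGF17 (3.03 FPKM in R-NSCP1 against 20.5 FPKM in ESC), EGR2 (2.65 FPKM in R-NSCP1 against 17.2 FPKM in ESC) and IRX5 (1.24 FPKM in R-NSCP1 against 6.33 FPKM in ESC). Several were near 0 again at the later stage: in R-NSCP6 PAX3 was at 0.00998 FPKM, EN2 at 0.108 FPKM, WNT1 at 0.1 FPKM and OLIG3 at 0.421 FPKM, against 6.6 FPKM for OLIG3 in R-NSCP1. All 4 listed PAX genes and all 3 listed LHX genes passed 2-fold upward in R-NSCP1. PAX3, PAX7, PAX8, WNT1, GDF7 and OLIG3 reached 3 FPKM in R-NSCP1 alone and appear to have a row only through it. The count of PAX genes and that of the 23 listed genes therefore partly follow from the listing.

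**Figure D4:**
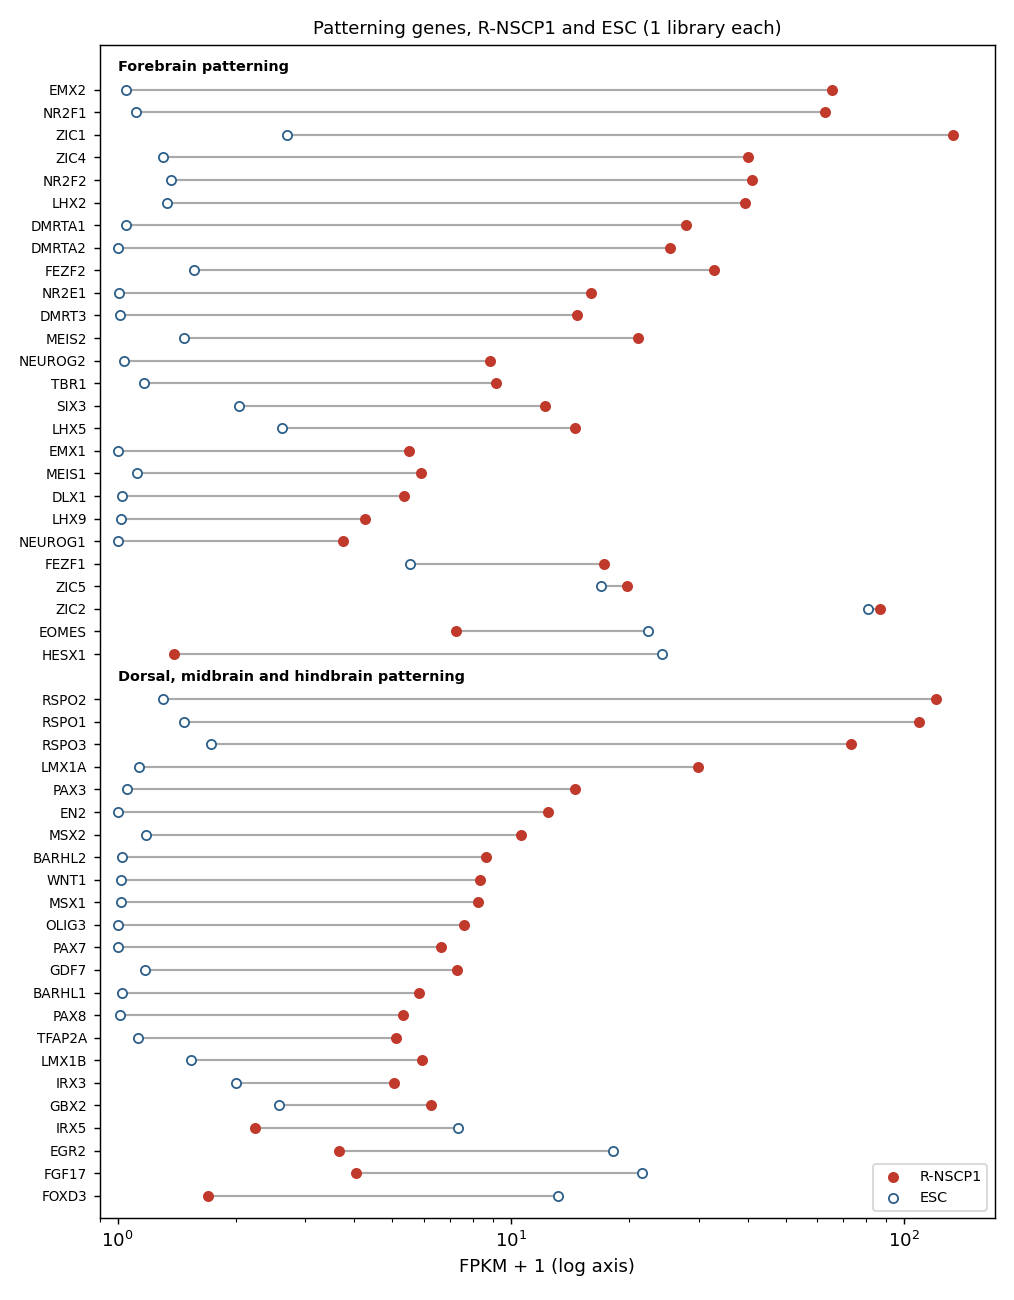
FPKM + 1 on a log axis for patterning genes of both lists, R-NSCP1 as filled red points and ESC as open blue points, 1 library each, ordered by log2 ratio within each list. Most ESC points sit near 1 (FPKM of 0), while EMX2, ZIC1 and the R-spondins lie between 64.5 and 132 FPKM in R-NSCP1.

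Besides the R-spondins, Wnt ligand genes were higher in R-NSCP1. Of 12 WNT genes in the table, 11 lay 2-fold or more above their ESC level in R-NSCP1. All 12 were at 3 FPKM or more in R-NSCP1 and under 3 FPKM in ESC. A WNT gene under 3 FPKM in every library appears to have no row, so this count partly follows from which genes are listed. The summed level of the 12 genes was 237 FPKM in R-NSCP1 against 8.04 FPKM in ESC. WNT8B made up most of that sum. WNT7B (14.8 FPKM in R-NSCP1 against 0.0239 FPKM in ESC), WNT4 (16.8 FPKM in R-NSCP1 against 0.279 FPKM in ESC) and WNT2B (11.4 FPKM in R-NSCP1 against 0.432 FPKM in ESC) followed, and WNT3A, the dorsal midline ligand, was at 4.12 FPKM in R-NSCP1 and listed at 0 in ESC. Receptors divided: FZD10 (22.5 FPKM in R-NSCP1 against 1.56 FPKM in ESC), FZD1 (24 FPKM in R-NSCP1 against 1.86 FPKM in ESC), FZD2 (16.5 FPKM in R-NSCP1 against 1.75 FPKM in ESC) and FZD3 (36.7 FPKM in R-NSCP1 against 8.89 FPKM in ESC) were higher, FZD5 (0.392 FPKM in R-NSCP1 against 16.9 FPKM in ESC) and FZD7, a Frizzled of pluripotent cells (22.4 FPKM in R-NSCP1 against 82.4 FPKM in ESC), were lower, and the other 4 were within 2-fold. The summed Frizzled level was thus near equal, 140.2 FPKM in R-NSCP1 and 132 FPKM in ESC. Genes that canonical Wnt signalling induces as feedback were higher, with AXIN2 at 44.2 FPKM in R-NSCP1 against 5.21 FPKM in ESC, NKD1 at 7.51 FPKM in R-NSCP1 against 0.734 FPKM in ESC, APCDD1 at 17.8 FPKM in R-NSCP1 against 2.92 FPKM in ESC and SP5 at 8.84 FPKM in R-NSCP1 against 1.65 FPKM in ESC. Of the TCF factors, LEF1 had 16.8 FPKM in R-NSCP1 against 0.138 FPKM in ESC and TCF7L1, the repressing TCF of pluripotent cells, 21.5 FPKM in R-NSCP1 against 61.2 FPKM in ESC. LGR4, an R-spondin receptor, was lower with 11.3 FPKM in R-NSCP1 against 37.8 FPKM in ESC. The secreted inhibitor genes went in both directions, SFRP1 with 56.3 FPKM in R-NSCP1 against 242 FPKM in ESC and SFRP2 with 95 FPKM in R-NSCP1 against 28.3 FPKM in ESC. In all, 24 of 41 listed Wnt genes were at least 2-fold higher and 5 lower (58.5% and 12.2%), where 17.2% and 12.4% of all symbols were. The share of lower genes was thus near that of all symbols.

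Hedgehog receptor and co-receptor genes and GLI3 were higher, while the ligand gene was near the floor in both libraries. GLI3, the repressing effector, had 43.9 FPKM in R-NSCP1 against 1.45 FPKM in ESC (4.19), and the ligand-binding co-receptor GAS1 had 37.8 FPKM in R-NSCP1 against 1.43 FPKM in ESC. The co-receptors BOC and CDON had 30.3 FPKM in R-NSCP1 against 1.09 FPKM in ESC for BOC and 24.9 FPKM in R-NSCP1 against 5.44 FPKM in ESC for CDON. The receptor gene PTCH1, itself a target, was at 11 FPKM in R-NSCP1 against 3.46 FPKM in ESC and the transducer SMO at 33.2 FPKM in R-NSCP1 against 14.7 FPKM in ESC. GLI1, the target most often used as a readout, stayed within 2-fold at 2.42 FPKM in R-NSCP1 against 1.6 FPKM in ESC. SHH itself, which the medium supplied as protein, had 0.271 FPKM in R-NSCP1 against 0.225 FPKM in ESC, the ventral gene FOXA2 had 0.751 FPKM in R-NSCP1 against 7.17 FPKM in ESC and NKX6-1 had 0.477 FPKM in R-NSCP1 against 0.0662 FPKM in ESC. Of 15 listed members, 7 (46.7%) were at least 2-fold higher, against 17.2% of all symbols, and 1, FOXA2, was lower.

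Every listed Notch receptor was at least 2-fold higher in R-NSCP1: NOTCH1 at 14.2 FPKM in R-NSCP1 against 5.29 FPKM in ESC, NOTCH2 at 23.1 FPKM in R-NSCP1 against 6.08 FPKM in ESC and NOTCH3 at 21 FPKM in R-NSCP1 against 7.02 FPKM in ESC. Among the ligands, DLL1 had 20.2 FPKM in R-NSCP1 against 0.867 FPKM in ESC, JAG1 22.9 FPKM in R-NSCP1 against 3.62 FPKM in ESC and JAG2 1.94 FPKM in R-NSCP1 against 0.325 FPKM in ESC, while DLL3 had 3 FPKM in R-NSCP1 against 2.33 FPKM in ESC. The effector HES1, which represses proneural genes, had 69 FPKM in R-NSCP1 against 25.7 FPKM in ESC, and HEY1 3.81 FPKM in R-NSCP1 against 0.41 FPKM in ESC. HES6, which opposes HES1, had 25.9 FPKM in R-NSCP1, and its level in R-NSCP6 was 282 FPKM. The R-NSCP6 medium held added Notch ligands, and their effect on this level was not tested. LFNG, the glycosyltransferase that tunes ligand choice, had 15.5 FPKM in R-NSCP1 against 2.36 FPKM in ESC, and the non-canonical ligand DLK1 26.6 FPKM in R-NSCP1 against 1.13 FPKM in ESC. The shared nuclear factor RBPJ, with 34 FPKM in R-NSCP1 against 27.3 FPKM in ESC, and the antagonist NUMB, with 13.7 FPKM in R-NSCP1 against 17.3 FPKM in ESC, were within 2-fold. In all 13 of 22 members (59.1%) were at least 2-fold higher, against 17.2% of all symbols, and none was lower.

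FGF genes had no common direction, with 5 of 19 at least 2-fold higher and 7 lower (26.3% and 36.8%). Over all symbols 17.2% were higher and 12.4% lower. The median of -0.38 turned positive after division by the library sum (0.62) or by that sum without the 100 most abundant symbols (0.05). FGF2, the autocrine factor of pluripotent cells, had 7.67 FPKM in R-NSCP1 against 25.7 FPKM in ESC. FGFR2 was listed at 0 in R-NSCP1, R-NSCP6 and NPC and at 12.6 FPKM in ESC, while FGFR3 had 14.7 FPKM in R-NSCP1 against 5 FPKM in ESC and FGFR1 46.4 FPKM in R-NSCP1 against 58.5 FPKM in ESC. The carrier protein gene FGFBP3 had the largest ratio of the list, with 72.6 FPKM in R-NSCP1 against 5.33 FPKM in ESC. Among ERK feedback genes, SPRY1 (37.6 FPKM in R-NSCP1 against 11.2 FPKM in ESC) was higher, SPRY4 (4.05 FPKM in R-NSCP1 against 10.02 FPKM in ESC) lower, and SPRY2 (23 FPKM in R-NSCP1 against 21.6 FPKM in ESC) and DUSP6 (30.1 FPKM in R-NSCP1 against 39.6 FPKM in ESC) within 2-fold. The ETS factors that FGF induces were split, ETV5 at 14.3 FPKM in R-NSCP1 against 6.31 FPKM in ESC and ETV4 at 17.7 FPKM in R-NSCP1 against 48.4 FPKM in ESC.

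BMP genes were higher on balance, 13 of 25 (52%) at least 2-fold, against 17.2% of all symbols, and 1, FST, lower. BMP7 (20.9 FPKM in R-NSCP1 against 2.02 FPKM in ESC) had the largest ratio of the ligands and BMP4 was within 2-fold (10.1 FPKM in R-NSCP1 against 6.08 FPKM in ESC). The antagonists were higher too, NOG (noggin) with 6.61 FPKM in R-NSCP1 against 0.0693 FPKM in ESC and GREM1 with 8.59 FPKM in R-NSCP1 against 0.139 FPKM in ESC. Of the ID genes, direct BMP targets that hold back differentiation, ID4 had 81.6 FPKM in R-NSCP1 against 7.85 FPKM in ESC and ID2 72.3 FPKM in R-NSCP1 against 8.99 FPKM in ESC, while ID1 had 51.4 FPKM in R-NSCP1 against 81.1 FPKM in ESC, a log2 ratio of -0.65. The receptors BMPR1A (33.1 FPKM in R-NSCP1 against 23.2 FPKM in ESC) and BMPR2 (6.73 FPKM in R-NSCP1 against 3.89 FPKM in ESC) and the transducers SMAD1 (15.7 FPKM in R-NSCP1 against 11.8 FPKM in ESC) and SMAD5 (15.7 FPKM in R-NSCP1 against 13.4 FPKM in ESC) were within 2-fold.

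In the retinoic acid pathway the binding proteins were abundant. CRABP1, the cytoplasmic retinoic acid binding protein of hindbrain and crest, had 291 FPKM in R-NSCP1 against 15.4 FPKM in ESC (4.15), and CRABP2 had 263 FPKM in R-NSCP1 against 144 FPKM in ESC. The retinol-handling gene RDH10 (11.4 FPKM in R-NSCP1 against 2.15 FPKM in ESC) and the synthesising enzyme gene ALDH1A1 (3.98 FPKM in R-NSCP1 against 0.453 FPKM in ESC) were higher. CYP26A1, which degrades retinoic acid and is induced by it, had 2.2 FPKM in R-NSCP1 against 48.3 FPKM in ESC (-3.95). Of 12 listed, 6 were at least 2-fold higher and 2, CYP26A1 and RARG, lower (50% and 16.7%). Over all symbols 17.2% were higher and 12.4% lower, so the share of lower genes was near the background.

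**Figure D5:**
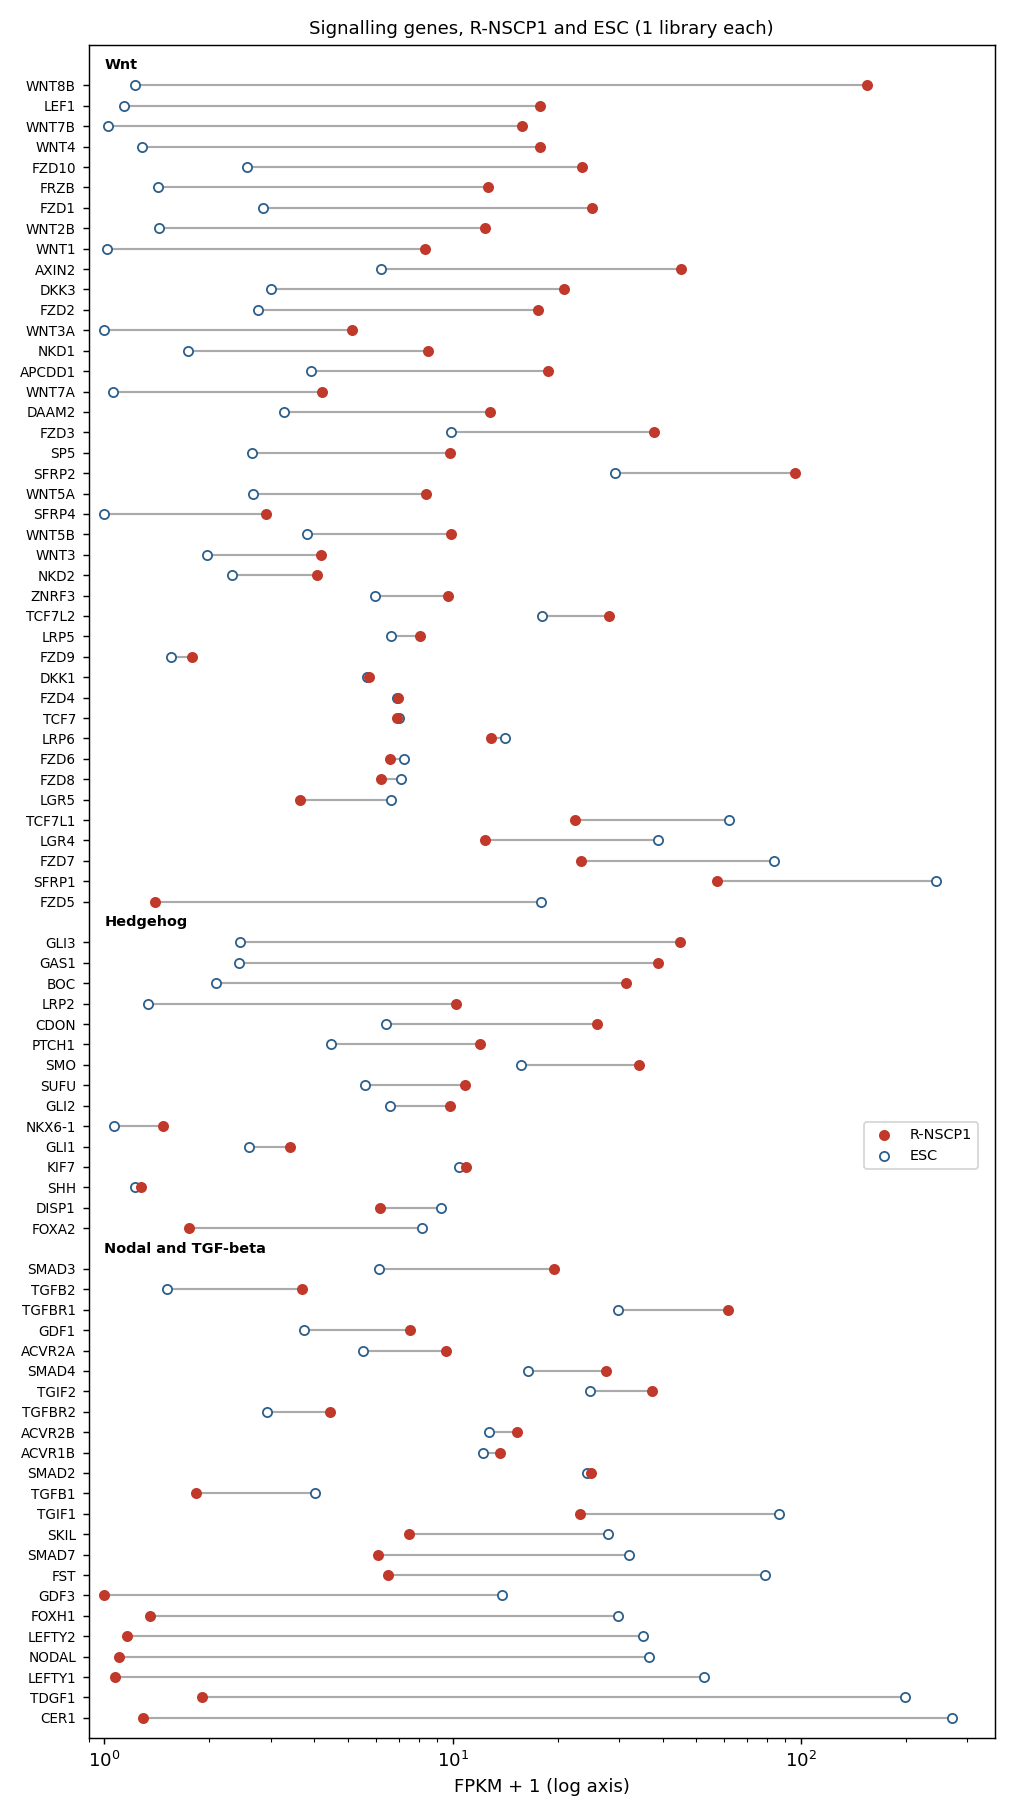
FPKM + 1 on a log axis for listed Wnt, Hedgehog and Nodal or TGF-beta genes, R-NSCP1 as filled red points and ESC as open blue points, 1 library each, ordered by log2 ratio within each pathway. Wnt ligands have R-NSCP1 to the right of ESC, NODAL, LEFTY1, LEFTY2 and CER1 have ESC to the right, and Frizzled receptors lie on both sides, from FZD10 to FZD5.

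Genes of young neurons were already above their ESC level in rosettes. Of 38 listed, 31 (81.6%) were 2-fold or more higher in R-NSCP1, against 17.2% of all symbols, with a median of 1.81. The synaptic vesicle gene SYT1 (7.06 FPKM in R-NSCP1 against 18.9 FPKM in ESC) was the 1 lower. STMN2, a microtubule regulator of growing axons, had 48.6 FPKM in R-NSCP1 against 0.896 FPKM in ESC, and DCX, the doublecortin of migrating neurons, 27.7 FPKM in R-NSCP1 against 0.489 FPKM in ESC. POU3F2 (BRN2) was at 25.1 FPKM in R-NSCP1 and listed at 0 in ESC. HMP19 (NSG2) had 20.5 FPKM in R-NSCP1 against 0.138 FPKM in ESC, STMN4 18.8 FPKM in R-NSCP1 against 0.138 FPKM in ESC and the axonal protein genes 62.6 FPKM in R-NSCP1 against 7.76 FPKM in ESC for MAP1B and 79.2 FPKM in R-NSCP1 against 8.61 FPKM in ESC for DPYSL2. Factors of later neurons were near the floor at this stage, with NEUROD2 at 0.0568 FPKM, NEUROD6 at 1.17 FPKM and RBFOX3 (NeuN) at 0.582 FPKM in R-NSCP1. Their R-NSCP6 levels were 7.11 FPKM for NEUROD2, 32 FPKM for NEUROD6 and 3.14 FPKM for RBFOX3, and STMN2 was there at 201 FPKM. The ubiquitous STMN1 (514 FPKM in R-NSCP1 against 443 FPKM in ESC) was within 2-fold. DCX had 4.5 FPKM in R-NSCP6.

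Axon guidance genes were higher in 25 of 46 cases and lower in 3 (54.3% and 6.52%), with a median of 1.19. Over all symbols 17.2% were higher and 12.4% lower. SLIT2, a midline repellent, had 50.9 FPKM in R-NSCP1 against 1.54 FPKM in ESC, and the netrin receptor genes 16.3 FPKM in R-NSCP1 against 0.0151 FPKM in ESC for DCC and 8.94 FPKM in R-NSCP1 against 0.385 FPKM in ESC for UNC5C. The netrin gene NTN1 itself was low, 1.62 FPKM in R-NSCP1 against 1.05 FPKM in ESC. Eph receptors and ephrins, which set tissue boundaries by contact, were mostly higher: 7 of 10 receptors and 6 of 7 ephrins were at least 2-fold higher. EFNB2 was the most abundant ephrin with 78.9 FPKM in R-NSCP1 against 16.1 FPKM in ESC, and EPHA7 the most abundant receptor with 51.9 FPKM in R-NSCP1 against 11.4 FPKM in ESC. EPHA1, an epithelial receptor, was the one lower, with 0.213 FPKM in R-NSCP1 against 23.9 FPKM in ESC. Of the semaphorins, 4 of 18 were at least 2-fold higher and 2 lower, near the 17.2% and 12.4% of all symbols. They ranged from SEMA3C with 27.4 FPKM in R-NSCP1 against 1.48 FPKM in ESC to SEMA3A with 3.35 FPKM in R-NSCP1 against 19.1 FPKM in ESC.

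Ion channel and receptor genes were low in level and mixed in direction. Of 28 genes 8 were at least 2-fold higher and 8 lower (28.6% each), where 17.2% and 12.4% of all symbols were. In the lowest level group of all symbols 30.2% were higher and 5.86% lower. The share of higher genes was near that of this group, while the share of lower genes was above both backgrounds. Among the lower were KCND2 (0.441 FPKM in R-NSCP1 against 5.28 FPKM in ESC) and KCNS3 (1.31 FPKM in R-NSCP1 against 7.64 FPKM in ESC). SCN1A, a voltage-gated sodium channel gene, had 8.09 FPKM in R-NSCP1 against 0.227 FPKM in ESC, and the AMPA receptor subunit gene GRIA2 3.53 FPKM in R-NSCP1 against 0.177 FPKM in ESC. The GABA receptor subunit gene GABRB2 was at 4.28 FPKM in R-NSCP1 and listed at 0 in ESC. All 8 listed ionotropic glutamate receptor subunits had a log2 ratio above 0 and 3 were at least 2-fold higher.

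Among RNA-binding proteins, neuronal members were higher. The neuronal ELAVL3 (9.25 FPKM in R-NSCP1 against 0.147 FPKM in ESC), ELAVL4 (9.39 FPKM in R-NSCP1 against 0.698 FPKM in ESC) and ELAVL2 (8.57 FPKM in R-NSCP1 against 1.68 FPKM in ESC) were higher, whereas the ubiquitous ELAVL1 was within 2-fold (36.8 FPKM in R-NSCP1 against 31.8 FPKM in ESC). The neuronal splicing regulators had 13.5 FPKM in R-NSCP1 against 2.97 FPKM in ESC for NOVA1 and 7.26 FPKM in R-NSCP1 against 0.215 FPKM in ESC for NOVA2, and the related CELF genes 14.3 FPKM in R-NSCP1 against 1.12 FPKM in ESC for CELF2 and 8.14 FPKM in R-NSCP1 against 0.0482 FPKM in ESC for CELF3. MSI1 (Musashi), which sustains neural progenitors, had 46.4 FPKM in R-NSCP1 against 12.9 FPKM in ESC. The polypyrimidine tract binding genes PTBP1 (117 FPKM in R-NSCP1 against 154 FPKM in ESC) and PTBP2 (55.7 FPKM in R-NSCP1 against 52.7 FPKM in ESC), whose exchange accompanies neuronal splicing, were both within 2-fold. Of 33 members, 12 were at least 2-fold higher, and the 4 lower were LIN28A, LIN28B, ESRP1 and ESRP2.

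Markers of other cell types were present beside the neural genes. The choroid plexus, the epithelium that makes cerebrospinal fluid, had 4 markers here, of which TTR, CLIC6 and KCNJ13 had a row and FOLR1 had none. TTR (transthyretin) was at 463 FPKM in R-NSCP1 and listed at 0 in ESC, the highest level of any symbol at 0 in ESC. CLIC6 had 23.1 FPKM in R-NSCP1 against 0.0176 FPKM in ESC and KCNJ13 4.12 FPKM in R-NSCP1 against 0.0305 FPKM in ESC, and 9 of 12 members of the wider list, which also holds LMX1A, MSX1 and RSPO3 of the dorsal list, were at least 2-fold higher. Of the other members, ECRG4 was lower (2.32 FPKM in R-NSCP1 against 5.69 FPKM in ESC). HTR2C (3.44 FPKM in R-NSCP1 against 1.76 FPKM in ESC) and IGFBP2 (224 FPKM in R-NSCP1 against 117 FPKM in ESC) were within 2-fold. In R-NSCP6 TTR was at 154 FPKM, and in NPC it was listed at 0. The defining astroglial markers were near the floor in both libraries, GFAP with 0.764 FPKM in R-NSCP1 and 0.246 FPKM in ESC and S100B with 0.424 FPKM in R-NSCP1 and 0.136 FPKM in ESC, and AQP4 had 0.0691 FPKM in R-NSCP1 and under 0.001 FPKM in ESC. Their sum in NPC was 686 FPKM. Fibroblast markers summed to 53.8 FPKM in R-NSCP1 and 62.6 FPKM in ESC, with COL3A1 (10.1 FPKM in R-NSCP1 against 0.125 FPKM in ESC), LUM (6.75 FPKM in R-NSCP1 against 0.151 FPKM in ESC) and DCN (3.27 FPKM in R-NSCP1 against 0.0136 FPKM in ESC) higher and COL1A1 (3.97 FPKM in R-NSCP1 against 11.7 FPKM in ESC) and THY1 (16 FPKM in R-NSCP1 against 41.4 FPKM in ESC) lower. None of the 7 was at 0 in either library, and whether RNA of the mouse feeder fibroblasts entered the ESC values was not tested. Of the wider mesenchymal list 11 of 19 were at least 2-fold higher, SPARC being the most abundant with 325 FPKM in R-NSCP1 against 67.6 FPKM in ESC. The endothelial receptor genes KDR (1.46 FPKM in R-NSCP1 against 9.54 FPKM in ESC) and TEK (0.427 FPKM in R-NSCP1 against 6.77 FPKM in ESC) were lower. VTCN1, known from trophoblast and amnion, had 0.339 FPKM in R-NSCP1 against 61.1 FPKM in ESC. What share of the neural, matrix or dorsal values came from such cells was not tested.

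Among extracellular matrix genes, collagen IV of the basement membrane was higher in R-NSCP1. COL4A6 had 60.3 FPKM in R-NSCP1 against 3.39 FPKM in ESC and COL4A5 48.4 FPKM in R-NSCP1 against 6.05 FPKM in ESC. COL4A2 had 70.00 FPKM in R-NSCP1 against 16.7 FPKM in ESC, and its usual partner COL4A1 was within 2-fold with 17.2 FPKM in R-NSCP1 against 11.2 FPKM in ESC. SPOCK1, a proteoglycan gene, had 44.5 FPKM in R-NSCP1 against 2.23 FPKM in ESC, and the glypican gene GPC3 149 FPKM in R-NSCP1 against 19.9 FPKM in ESC. The laminin chains split, LAMA1 (17.2 FPKM in R-NSCP1 against 5.21 FPKM in ESC) and LAMC1 (21.8 FPKM in R-NSCP1 against 5.87 FPKM in ESC) being higher and LAMA5 (4.52 FPKM in R-NSCP1 against 13.7 FPKM in ESC) and LAMB1 (9.18 FPKM in R-NSCP1 against 29.2 FPKM in ESC) lower. So did the integrins, the receptors of these proteins: ITGB8 had 7.58 FPKM in R-NSCP1 against 0.374 FPKM in ESC, while ITGA6 (23.1 FPKM in R-NSCP1 against 69.6 FPKM in ESC) and ITGB5 (8.98 FPKM in R-NSCP1 against 38.6 FPKM in ESC), prominent in pluripotent cells, were lower. Of 33 listed, 13 were at least 2-fold higher and 5 lower (39.4% and 15.2%). Over all symbols 17.2% were higher and 12.4% lower, so the share of lower genes was near the background.

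Genes of protein synthesis were lower in R-NSCP1 as a body, by less than 2-fold each in most cases, and the sign of this shift rests on scaling. The 38 large-subunit ribosomal proteins of the list had a median log2 ratio of -0.81, all below 0, and the 27 small-subunit ones -0.78, but after division by the library sum the medians were 0.21 and 0.24. RPL38 was the farthest below, with 1110.01 FPKM in R-NSCP1 against 7745 FPKM in ESC. Among all 69 mitochondrial ribosomal proteins 31 were at least 2-fold lower. The share was 12.4% over all symbols and 18.6% and 28.6% in the 2 most abundant groups of symbols. The median was -0.94 against 0.04 after library-sum scaling. The chaperonin that folds actin and tubulin is a further abundant complex: 7 of 9 subunits were at least 2-fold lower, where 28.6% of the most abundant group of symbols were. Examples were CCT4 with 77.9 FPKM in R-NSCP1 against 231 FPKM in ESC and TCP1 with 108 FPKM in R-NSCP1 against 294 FPKM in ESC. The chaperonin median kept its sign after library-sum scaling (-1.16 and -0.14). The mitochondrial chaperonin gene HSPD1 had 187 FPKM in R-NSCP1 against 876 FPKM in ESC and its lid HSPE1 194 FPKM in R-NSCP1 against 772 FPKM in ESC. The cytosolic chaperone genes HSPA8 and HSP90AB1 had 390.4 FPKM in R-NSCP1 against 1374 FPKM in ESC for HSPA8 and 598 FPKM in R-NSCP1 against 1506 FPKM in ESC for HSP90AB1. In the endoplasmic reticulum HSPA5 (167 FPKM in R-NSCP1 against 247 FPKM in ESC) and HSP90B1 (241 FPKM in R-NSCP1 against 358 FPKM in ESC) were within 2-fold. The proteasome had 11 of 34 subunits at least 2-fold lower, where 18.6% and 28.6% of the 2 most abundant groups of symbols were, and a median of -0.81, or 0.20 after library-sum scaling.

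Respiratory chain and ATP synthase genes had 18 of 67 members at least 2-fold lower (26.9%) and none higher, a share near the 28.6% of the most abundant group of symbols. The list had a median of -0.69 that became 0.32 after library-sum scaling. Of the 18, 8 were among the symbols high in ESC and under 1 FPKM in every later library, such as COX5A, UQCRH (listed at 0 in R-NSCP1 and at 598 FPKM in ESC) and NDUFS5 (0.145 FPKM in R-NSCP1 against 1148 FPKM in ESC). Among members outside that set were COX4I1 with 268 FPKM in R-NSCP1 against 481 FPKM in ESC, ATP5B with 254 FPKM in R-NSCP1 against 454 FPKM in ESC and NDUFB8 with 106 FPKM in R-NSCP1 against 106 FPKM in ESC, all within 2-fold, and cytochrome c, CYCS, with 110.1 FPKM in R-NSCP1 against 404 FPKM in ESC.

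In glycolysis 6 of 26 genes were at least 2-fold lower and 3 higher (23.1% and 11.5%), near the 18.6% and 8.43% of the ninth level group, with a median of -0.42 that turned to 0.59 after library-sum scaling and to 0.02 without the 100 most abundant symbols in the sum. GAPDH (1217 FPKM in R-NSCP1 against 1849.9 FPKM in ESC), ENO1 (754 FPKM in R-NSCP1 against 1076 FPKM in ESC) and TPI1 (502 FPKM in R-NSCP1 against 427 FPKM in ESC) were within 2-fold. The neuron-enriched enolase ENO2 had 27.3 FPKM in R-NSCP1 against 5.01 FPKM in ESC, and the genes that raise the activator of phosphofructokinase had 21 FPKM in R-NSCP1 against 7.43 FPKM in ESC for PFKFB3 and 18 FPKM in R-NSCP1 against 5.65 FPKM in ESC for PFKFB4. The glucose transporter SLC2A1 had 97.8 FPKM in R-NSCP1 against 68.1 FPKM in ESC, while SLC2A3 had 0.987 FPKM in R-NSCP1 against 318 FPKM in ESC and the lactate transporter SLC16A1 35.6 FPKM in R-NSCP1 against 129.6 FPKM in ESC. PDK1, a brake on pyruvate entry to mitochondria, was at 9.85 FPKM in R-NSCP1 against 32 FPKM in ESC. LDHB is uncertain: its 5 rows share 839 FPKM in R-NSCP1 and differ in ESC, where the row of highest mean has 1773 FPKM, and summing the rows turns the log2 ratio of -1.08 to 1.15.

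Cholesterol synthesis genes were higher on balance. Of 24 genes 9 (37.5%) passed 2-fold upward in R-NSCP1, against 17.2% of all symbols. None was lower, and 22 had a log2 ratio above 0 (median 0.82). Among the enzyme genes HMGCS1 had 208 FPKM in R-NSCP1 against 85.6 FPKM in ESC, SQLE 78.1 FPKM in R-NSCP1 against 29.5 FPKM in ESC and TM7SF2 34.6 FPKM in R-NSCP1 against 10.5 FPKM in ESC. The regulator SREBF1 had 14.8 FPKM in R-NSCP1 against 4.49 FPKM in ESC and SREBF2 71 FPKM in R-NSCP1 against 49.7 FPKM in ESC. Amino acid transporters went both ways. Lower were SLC7A5 (27.9 FPKM in R-NSCP1 against 103 FPKM in ESC), its partner SLC3A2 (34.1 FPKM in R-NSCP1 against 92.6 FPKM in ESC), SLC1A5 (4.19 FPKM in R-NSCP1 against 35.2 FPKM in ESC) and SLC7A3, listed at 0 in R-NSCP1 and at 40.6 FPKM in ESC. Higher were the glial glutamate transporter SLC1A3 (23 FPKM in R-NSCP1 against 3.1 FPKM in ESC) and the neutral amino acid transporter SLC1A4 (8.39 FPKM in R-NSCP1 against 1.23 FPKM in ESC).

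Of the replication and mitosis genes, 42 of 55 were within 2-fold, a share near the 70.3% of all symbols, with a median of -0.26, or 0.74 after library-sum scaling. MKI67 had 39.98 FPKM in R-NSCP1 against 48.2 FPKM in ESC, TOP2A 138 FPKM in R-NSCP1 against 162 FPKM in ESC, PCNA 202 FPKM in R-NSCP1 against 225 FPKM in ESC and MCM2 61.5 FPKM in R-NSCP1 against 74.6 FPKM in ESC. All 9 listed MCM genes had a log2 ratio below 0, with a median of -0.59 that turned to 0.43 after library-sum scaling. Regulators of G1 differed more. CCND1, the D cyclin driven by growth signals, had 67.2 FPKM in R-NSCP1 against 12.2 FPKM in ESC, and CCNE1, high in pluripotent cycles, 11.2 FPKM in R-NSCP1 against 38 FPKM in ESC. The inhibitors CDKN1A (4.62 FPKM in R-NSCP1 against 0.746 FPKM in ESC), CDKN1B (34.1 FPKM in R-NSCP1 against 13.4 FPKM in ESC), CDKN1C (24 FPKM in R-NSCP1 against 8.73 FPKM in ESC) and CDKN2C (4.05 FPKM in R-NSCP1 against 0.0356 FPKM in ESC) were each 2-fold or more higher in R-NSCP1, as was CDKN2D (5.45 FPKM in R-NSCP1 against 2.08 FPKM in ESC), while CDKN2A was near 0, 0.0337 FPKM in R-NSCP1 and listed at 0 in ESC.

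Among chromatin genes 12 of 50 were at least 2-fold higher and 6 lower (24% and 12%), near the 17.2% and 12.4% of all symbols. SMARCD3, a BAF remodelling subunit, had 21 FPKM in R-NSCP1 against 1.23 FPKM in ESC, and the neuronal BAF subunit ACTL6B 2.26 FPKM in R-NSCP1 against 0.0278 FPKM in ESC. Its progenitor counterpart ACTL6A had 37.5 FPKM in R-NSCP1 against 48 FPKM in ESC. The histone demethylase KDM6B had 9.92 FPKM in R-NSCP1 against 1.52 FPKM in ESC, the deacetylase HDAC9 5.36 FPKM in R-NSCP1 against 0.314 FPKM in ESC and the Polycomb gene CBX8 13.5 FPKM in R-NSCP1 against 1.75 FPKM in ESC. Another Polycomb gene, PHC1, was lower with 16.2 FPKM in R-NSCP1 against 74.6 FPKM in ESC. Lower beside DNMT3B were also TET1 (4.91 FPKM in R-NSCP1 against 12.3 FPKM in ESC), HELLS (49.9 FPKM in R-NSCP1 against 117 FPKM in ESC), JARID2 (27.3 FPKM in R-NSCP1 against 67 FPKM in ESC) and HMGA1 (231 FPKM in R-NSCP1 against 727 FPKM in ESC), while its paralogue HMGA2 had 123 FPKM in R-NSCP1 against 34.3 FPKM in ESC. DNMT1 (40.5 FPKM in R-NSCP1 against 40.5 FPKM in ESC), EZH2 (67.3 FPKM in R-NSCP1 against 46.4 FPKM in ESC) and CHD4 (98.2 FPKM in R-NSCP1 against 79.8 FPKM in ESC) were within 2-fold.

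Imprinted genes were higher in 8 of 15 cases (53.3%), against 17.2% of all symbols. PEG3 had 67.9 FPKM in R-NSCP1 against 4.32 FPKM in ESC, MEST 331 FPKM in R-NSCP1 against 68.8 FPKM in ESC, NDN 50.8 FPKM in R-NSCP1 against 5.49 FPKM in ESC and its genomic neighbour MAGEL2 12.9 FPKM in R-NSCP1 against 1.88 FPKM in ESC. SNRPN, from the same imprinted region, was lower with 91 FPKM in R-NSCP1 against 352 FPKM in ESC. Of nuclear receptors, THRA (18.9 FPKM in R-NSCP1 against 2.17 FPKM in ESC) and NR4A2 (NURR1, of dopamine neurons; 10.3 FPKM in R-NSCP1 against 0.621 FPKM in ESC) followed the NR2F genes and NR2E1. Immune genes gave no common direction, 3 of 18 being higher and 6 lower, where 17.2% and 12.4% of all symbols were. B2M had 149 FPKM in R-NSCP1 against 374 FPKM in ESC and BST2 1.86 FPKM in R-NSCP1 against 34 FPKM in ESC, and IFITM1 and IFITM3, listed at 0 in all 3 later libraries, had 907 and 763 FPKM in ESC.

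Symbols listed at 0 in ESC and above 0 in R-NSCP1 numbered 135, and those listed at 0 in R-NSCP1 alone 65. Both kinds can hold symbols under 3 FPKM in both libraries, which appear to be listed through R-NSCP6 or NPC. A further 60 symbols in R-NSCP1 and 57 in ESC were above 0 but under 0.001 FPKM, TRIAP1 in R-NSCP1 among them, and such values lie below any useful precision of FPKM. At 20 FPKM or more in the other library stood 13 of the first kind and 32 of the second. Of the 10 highest of the first kind, TTR and POU3F2 have gene names. The 10 highest of the second kind held COX5A, UQCRH, ATP5G1, ATP5O and NDUFAB1 of the respiratory chain and ATP synthase, the proton pump gene ATP6V0E1, IFITM1, IFITM3 and SPTSSB, a subunit gene of sphingolipid synthesis at 205 FPKM in ESC.

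Of the named genes among the 10 most abundant symbols of R-NSCP1, EEF1A1, TMSB4X and CTXN1 were within 2-fold and TMSB10 was not. EEF1A1, the translation elongation factor, had 5954 FPKM in R-NSCP1 and 6687 FPKM in ESC, TMSB4X, which binds actin monomers, 5841 FPKM in R-NSCP1 and 4957 FPKM in ESC, and CTXN1, the cortexin gene, 4218 FPKM in R-NSCP1 and 4577 FPKM in ESC. Beta-actin, ACTB, had 770.1 FPKM in R-NSCP1 and 848 FPKM in ESC. TMSB10, the other abundant thymosin, was lower with 4924 FPKM in R-NSCP1 against 27064 FPKM in ESC. The other named genes among the 10 most abundant symbols of ESC were all more than 2-fold lower in R-NSCP1. POLR3K, a subunit gene of RNA polymerase III, had 928 FPKM in R-NSCP1 against 14484 FPKM in ESC, HILPDA, of lipid droplets, 1215 FPKM in R-NSCP1 against 10247 FPKM in ESC, and COX7A2 of the respiratory chain 797 FPKM in R-NSCP1 against 8014 FPKM in ESC. RPL38 is given above, and CCHCR1, which has 2 rows in the table, had 55.5 FPKM in R-NSCP1 against 7183 FPKM in ESC. In the housekeeping list 20 of 26 were within 2-fold, against 70.3% of all symbols, and the median was -0.56 as deposited and 0.43 after library-sum scaling.

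Set against all 3 other mRNA libraries, 54 symbols stood at least 4-fold higher in R-NSCP1 on the FPKM + 1 scale. The count of symbols at least 4-fold above every other library was 338 for ESC, 156 for R-NSCP6 and 239 for NPC. Those with a gene name in R-NSCP1, chosen here after their values were seen, included dorsal and boundary genes: WNT4, PAX3, FZD10, WNT1, PAX7, BARHL1, OLIG3, MSX2, GDF7, PAX8 and GREM1. WNT4, for example, was at 0.279 FPKM in ESC, 16.8 FPKM in R-NSCP1, 0.0366 FPKM in R-NSCP6 and 0.0813 FPKM in NPC. Named genes of other kinds were among the 54 too, such as COLEC12, ALOX15, SDK2, SPOCK1, RGS5, CA2 and SST. Others were LOC symbols with no gene name that were listed at 0 in the other libraries, such as LOC100428562 and LOC100428486. CBLN1, a synapse organiser of the cerebellum, had 18.7 FPKM in ESC, 114 FPKM in R-NSCP1, 11.7 FPKM in R-NSCP6 and 0.0226 FPKM in NPC. At a 2-fold margin, 10 of 23 dorsal, midbrain and hindbrain genes and 10 of 41 Wnt genes were highest in R-NSCP1, 4 of 15 Hedgehog genes, 4 of 12 choroid plexus genes and 2 of 28 forebrain genes. Over all symbols 201 (1.61%) were highest in R-NSCP1 by that margin. PAX3, PAX7, PAX8, OLIG3, GDF7, WNT1 and WNT4 reached 3 FPKM in R-NSCP1 alone and appear to have a row only through it. The dorsal and Wnt counts therefore partly follow from the listing.

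Genomic neighbours shared direction more often than all genes did. In the gene order of the RefSeq annotation, 5598 adjacent protein-coding pairs had both genes in the table. Of the neighbours of a gene at least 2-fold higher, 23.5% were themselves higher, where 16% of all genes in such pairs were, and 8.04% were lower. For lower genes the share was 15.1% against 11.8%. Pairs higher together included ZIC4 with ZIC1, COL3A1 with COL5A2 and NDN with MAGEL2, and DPPA4 with DPPA2 were lower together. These shares are a description of this pair of libraries, and overlapping gene models were not removed from them.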

How the data were processed

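Rhesus monkey mRNA of 4 stages was sequenced as paired ends on a HiSeq 2000 after poly(A) selection, with 1 library per stage from cells pooled over many repeats. The authors aligned the reads to MMUL_1.0 with TopHat2 (2.0.5 per the labels, with Bowtie 0.12.8.0) and estimated FPKM of UCSC known genes with Cufflinks 2.0.2, and these FPKM values were used as deposited. No read counts or intervals were used, so counting error is not given. Libraries were mapped by the column names and the sample titles.

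From the 2 columns compared, the log2 ratio of FPKM + 1 was computed in Python 3.11.15 (pandas 2.3.3). It used a pseudocount of 1 FPKM, no filter on low values beyond the listing itself and a rule of 2-fold. The calculation was tested on simulated data. No test was run, because no stage has a replicate. Gene symbols of LOC rows came from the table's own descriptions and RefSeq names.

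Genes are named by a fixed rule: the 15 largest and 15 smallest ratios among named single-row symbols above 0 in both libraries and of at least 20 FPKM in the higher, the members of each list farthest from equality or most abundant within 2-fold, the 10 highest symbols listed at 0 in 1 library, the 10 most abundant and the 10 least different. The members and lists were chosen with earlier results of these data known. Some list members are counted with their lists but are not reported here by name. Gene families, and some further members of lists, were chosen after their values were seen.

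Alternatives covered the pseudocount, a minimum of 3 FPKM, symbols listed at 0, repeated symbols, 4 scalings and the fold. Ratios by protein length were not computed. The miRNA libraries were not used here.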

Additional observations from a re-analysis of the deposited data

How the results depend on the processing

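The number of symbols at least 2-fold higher in R-NSCP1 was 2149 as deposited, and 1383 with 3 FPKM added. It was 6099 after division by the library sum and 3306 when that sum left out the 100 most abundant symbols. The number at least 2-fold lower was 1550 as deposited, 556 after division by the library sum and 888 without the 100 most abundant symbols. At 4-fold 656 were higher and 470 lower, and at 1.5-fold 3525 were higher and 2866 lower. Leaving out the repeated symbols, each taken at its highest ESC row, gave 2136 higher and 1500 lower at 2-fold. Summing their rows gave 2164 higher and 1530 lower. The median log2 ratio of 0.05 became 0.98 after division by the library sum, 0.18 after upper-quartile scaling and 0.43 without the 100 most abundant symbols. These scalings differ by their construction in how much weight a few abundant symbols of ESC have, LOC100426412 above all.

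Of 304 named symbols past 2-fold, 244 were still past it in the same direction after division by the library sum, 290 after upper-quartile scaling, 300 after median-of-ratios scaling and 278 with 3 FPKM added. In these settings the others stayed in the same direction under 2-fold. LDHB, with 5 rows, had a log2 ratio of -1.08 from the row of highest mean and 1.15 with its rows summed, the one reversed sign among named symbols past 2-fold. The median changed sign after division by the library sum for 9 of 37 lists (FGF, large and small ribosomal subunit, respiratory chain, glycolysis, cell cycle, chaperones, solute carriers and housekeeping). An alternative chosen after seeing the data left out the 58 symbols at 20 FPKM or more in ESC and under 1 FPKM in the later libraries, which gave 2149 higher and 1492 lower. All 58 are lower by the way they were chosen, so this outcome was fixed in advance. It cannot show how far the ESC column affects other genes. TPT1 and SET, just above 1 FPKM in R-NSCP1, were not among the 58. No paired analysis was possible because each stage has 1 library, and no library could be left out for the same reason. Ratios by protein length were planned and not run, since no length was at hand.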
